A study of Homo sapiens with 4 samples.

Results

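The genes for the subunits of RNA polymerase I, II and III, together with the gene for the mitochondrial RNA polymerase, were compared between HCT116 cells grown as spheroids and as monolayers. HCT116 is an established human colon carcinoma line. The members were taken by gene symbol, as every probe set that names a single gene whose symbol follows the POLR1, POLR2 or POLR3 pattern, or POLRMT. This gave 33 genes of the 19775 genes with a single-symbol probe set, each represented by its brightest probe set over the 4 arrays. Of these, 30 passed a minimum mean signal of 300 units and were tested among 8721 genes, and the other 3 are given below without a test. The study set 2 arrays of monolayer cultures against 2 arrays of spheroid cultures, all from untreated HCT116 cells, and asked how growth as a compact cell mass changes gene expression in these cells. Each array carries total RNA of whole cultures, labelled as biotinylated cRNA and hybridised to oligonucleotide arrays. A spheroid of this line has a proliferating rim around a core of non-dividing cells, and the RNA of both was pooled, so that fewer cells expressing a gene and less RNA per cell cannot be told apart.

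RNA polymerase I makes the large ribosomal RNA precursor, RNA polymerase II makes messenger RNA and many small nuclear RNAs, and RNA polymerase III makes transfer RNA, 5S ribosomal RNA and other short RNAs. Each enzyme has a pair of large catalytic subunits, an assembly platform, a stalk and a zinc ribbon subunit, and 5 small subunits (POLR2E, POLR2F, POLR2H, POLR2K and POLR2L) sit in all of them. RNA polymerase I and III supply the ribosome and the transfer RNAs, are most active in growing cells and are restrained when nutrients run short. Mitochondria use a separate enzyme of a single chain, POLRMT.

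The signals were deposited after scaling each array to the same trimmed mean of 500.1 units, and 27.5% to 30.0% of probe sets on an array exceeded the minimum. The arrays of a group correlated at 0.984 (monolayer) and 0.979 (spheroids), and arrays of different groups at 0.889 to 0.902. The Bacillus transcripts spiked into the labelling reaction read 17390 and 19430 units (summed) on the monolayer arrays and 41960 and 27540 on the spheroid arrays, a ratio of 1.89, while the hybridisation controls differed by a ratio of 1.09. When arrays were scaled to these spikes, the median difference of all genes moved from -0.03 to -0.89 on the log2 scale, with 3754 genes lower and 163 higher, so every difference below is relative to the bulk of transcripts on the same array. The ratio of the 3' to the 5' probe set of ACTB stood at 2.64 and 2.34 for the monolayer arrays and at 2.82 and 3 for the spheroid arrays. That of GAPDH went the other way, from 1.07 and 1.02 to 0.931 and 0.921, and the part of these ratios in the differences was not tested. Of 9 markers of colon epithelium, 5 were above the minimum, whereas the differentiation markers CDX1, CDX2, VIL1 and LGALS4 stayed below it. EPCAM was at 25873 to 29021 units on all arrays, and the groups overlapped for KRT18 too. CDH1 was higher in spheroids (1213 and 1835 units in monolayers, 4643 and 5419 in spheroids), as was KRT19 (13978 and 12872, then 24984 and 21669). KRT8 was lower on both spheroid arrays (7851 and 6056, then 5962 and 4003) but not called. Of 6 fibroblast markers only COL1A1 passed (868.6 and 657.8 units in monolayers, 2222 and 2659 in spheroids), the list summing to 802.7 to 1098 units in monolayers and 2413 to 2776 in spheroids with the other markers at 78.2 units or less. None of the leukocyte or endothelial markers with a probe set passed.

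Most polymerase subunit genes were lower in spheroids. Of the 30 tested, 20 fell and 2 rose (limma, Benjamini-Hochberg adjusted p under 0.05), or 66.7% lower. Over all tested genes 20.6% fell and 19.0% rose, which makes 39.6% in either direction. The median difference of the members was -0.58 on the log2 scale, against -0.03 over all tested genes, and single members ran from -1.31 (POLR3K) to 0.71 (POLR3GL). Both spheroid arrays lay below both monolayer arrays for 27 members (36.6% of all tested genes did so), above them for POLR1D and POLR3GL, and overlapped them for POLR3D. The count of lower members rests on few arrays: it was smaller without any 1 of them, as was the count over all tested genes. The median of the members was -0.61 without monolayer replicate 1 and -0.52 without monolayer replicate 2. It was -0.56 without spheroids replicate 1 and -0.62 without spheroids replicate 2, and the median of all tested genes lay between -0.05 and -0.01 in these fits. Under scaling to the spikes 28 members were lower and none was higher, where 43% of all tested genes were lower and 1.87% higher. The median of the members was then -1.45.

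**Figure D1:**
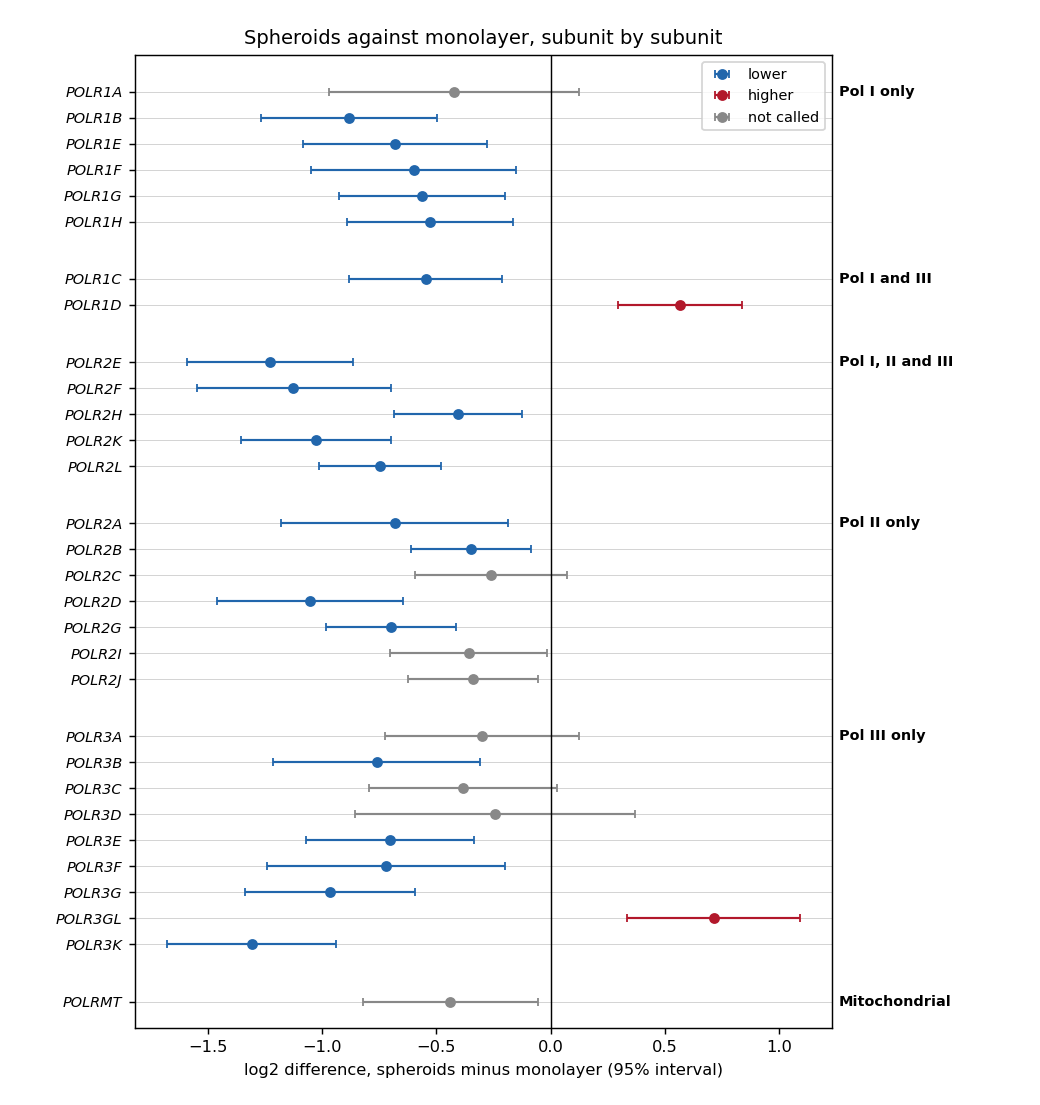
Differences of the 30 tested subunit genes between spheroids and monolayers, grouped by polymerase, on the log2 (signal + 32) scale, with 95% confidence intervals from limma. Blue points are genes called lower, red higher and grey not called, and the points lie between -1.31 and 0.71 with 28 of 30 below 0.

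All 5 subunits shared by the nuclear polymerases fell, with a median difference of -1.03. POLR2E, which binds near the entering DNA, read 6720 and 5866 units in monolayers and 3097 and 2284 in spheroids, a spheroid mean of 42.8% of the monolayer mean (6293 ± 603 and 2690 ± 575, SD, n = 2). Its log2 difference was -1.23 ± 0.17 (SE, limma adjusted p = 0.000148), and 1.22% of all tested genes were as low or lower. A separate POLR2E probe set gave -0.95 ± 0.16.

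POLR2F, a small subunit at the clamp of the enzyme, read 2572 and 3591 units in monolayers and 1227 and 1544 in spheroids, or 44.9%. POLR2K, a zinc-binding subunit that helps hold the assembly platform, read 8248 and 9252 against 3753 and 4854 units, or 49.2%. Their log2 differences were -1.13 ± 0.20 and -1.03 ± 0.15 (limma adjusted p = 0.000768 and 0.000259). POLR2L, the other zinc-binding shared subunit, read 15094 and 14394 units in monolayers against 9415 and 8179 in spheroids, a difference of -0.75 ± 0.12 (limma adjusted p = 0.000551). The groups stood apart for all of these genes. POLR2H, a subunit of the enzyme's outer side, moved least of the shared subunits, from 8012 and 8685 to 6560 and 6037 units (-0.40 ± 0.13, limma adjusted p = 0.0254), and its call was lost without monolayer replicate 2 or either spheroid replicate, under quantile normalization (-0.29, limma adjusted p = 0.0816), without the signal minimum and without the intensity trend.

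**Figure D2:**
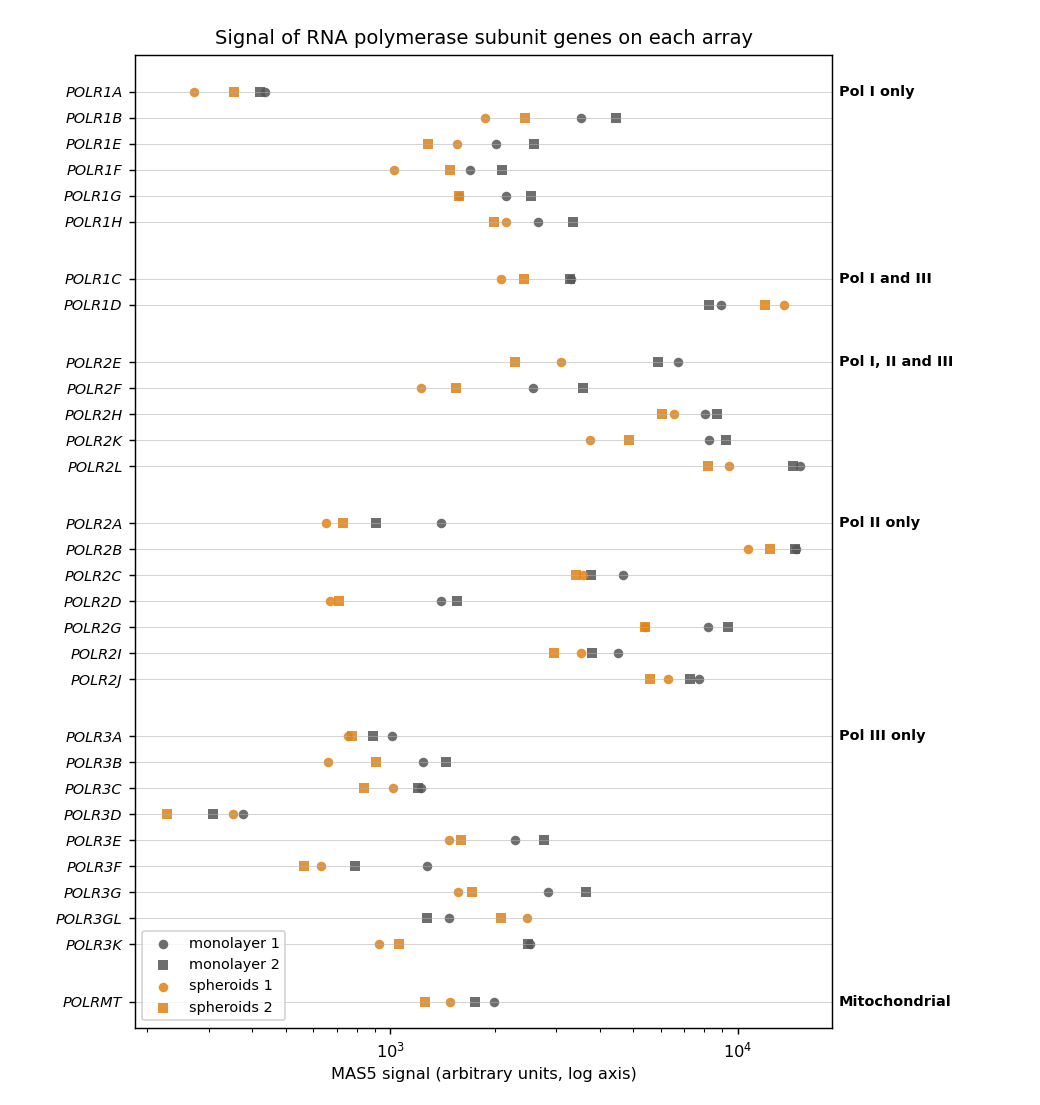
Signal of the 30 tested subunit genes on each of the 4 arrays, in MAS5 units on a log axis, by polymerase. Grey points are monolayer and orange points spheroid arrays, with circles for replicate 1 and squares for replicate 2, and both spheroid points lie lower for 27 genes, including all 5 shared subunits.

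Among the 6 subunits that only RNA polymerase I holds, 5 fell and POLR1A did not pass the test, with a median of -0.58. POLR1B, the second-largest catalytic subunit, read 3542 and 4449 units in monolayers and 1876 and 2441 in spheroids, or 54.0% (-0.88 ± 0.18, 95% interval -1.27 to -0.50, limma adjusted p = 0.002). It was the lowest of the 6, with 6.07% of all tested genes as low or lower, and the only one whose call held without each array in turn. Other POLR1B probe sets gave -0.72 ± 0.25 (called lower), -0.57 ± 0.21 and 0.08 ± 0.22 (neither called). The mean over the POLR1B probe sets was -0.52 (limma adjusted p = 0.0422). POLR1A, the largest catalytic subunit, read 434.8 and 422.8 units in monolayers and 272.8 and 355.8 in spheroids, close to the minimum, with a difference of -0.42 ± 0.25 (interval -0.97 to 0.12, limma adjusted p = 0.203). Another POLR1A probe set was called lower at -0.94 ± 0.27 (limma adjusted p = 0.021), and with the mean of its probe sets POLR1A was lower as well (-0.68, limma adjusted p = 0.0375).

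POLR1E and POLR1G form a dimer that anchors initiation factors on RNA polymerase I. POLR1E read 2018 and 2586 units in monolayers and 1558 and 1279 in spheroids (61.6%, -0.68 ± 0.19), and POLR1G 2144 and 2543 against 1570 and 1574 (67.1%, -0.56 ± 0.17). POLR1F, a stalk subunit that contacts the initiation factor RRN3, read 1689 and 2093 against 1024 and 1479 units (66.2%, -0.60 ± 0.21). POLR1H, the zinc ribbon subunit that takes part in RNA cleavage, read 2666 and 3349 against 2146 and 1982 units (68.6%, -0.53 ± 0.17). The limma adjusted p of these 4 genes lay between 0.0116 and 0.0363, the groups did not overlap, and each call was lost without monolayer replicate 2. Calls were also lost without spheroids replicate 1 (POLR1F and POLR1G) and without spheroids replicate 2 (POLR1E, POLR1G and POLR1H), and those of POLR1F and POLR1H without the signal minimum or the intensity trend. Without monolayer replicate 2 only POLR1B of the RNA polymerase I subunits was still lower, where 15.8% of all tested genes were.

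POLR1C and POLR1D pair with each other to form the assembly platform of both RNA polymerase I and RNA polymerase III, and they moved in opposite directions. POLR1C read 3300 and 3289 units in monolayers and 2086 and 2415 in spheroids, a fall to 68.3% (-0.55 ± 0.16, limma adjusted p = 0.0143) whose call was lost without either monolayer replicate or without spheroids replicate 1. POLR1D read 8945 and 8259 units in monolayers and 13566 and 11981 in spheroids, a rise of 1.49-fold (0.57 ± 0.12, interval 0.30 to 0.84, limma adjusted p = 0.00343). Both spheroid arrays were above both monolayer arrays, and the call held without each array in turn. Other POLR1D probe sets gave 0.47 ± 0.20 and 0.07 ± 0.17, neither called, and the mean over the probe sets was 0.37 (limma adjusted p = 0.0718). Under scaling to the spikes POLR1D was at -0.32 against the median of -0.89 for all genes.

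Of the 7 tested subunits particular to RNA polymerase II, 4 fell, and the median was -0.36. POLR2D and POLR2G, which together make the stalk, fell furthest. POLR2D read 1394 and 1552 units in monolayers and 671.9 and 713.1 in spheroids, or 47.0% (-1.05 ± 0.19, limma adjusted p = 0.00091), although its other probe set gave -0.26 ± 0.27 and was not called. POLR2G read 8201 and 9381 against 5383 and 5394 units, or 61.3% (-0.70 ± 0.13, limma adjusted p = 0.00129). The groups were clear of each other for both stalk genes, and both calls held without each array in turn.

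POLR2A, the largest catalytic subunit, whose carboxy-terminal tail is phosphorylated during transcription, read 1402 and 907.8 units in monolayers and 653.0 and 731.5 in spheroids (59.9%, -0.68 ± 0.23, limma adjusted p = 0.0317). Monolayer replicate 1 carried much of this difference, which was -0.38 without it and not called, and the call was lost without either spheroid replicate or the signal minimum as well. POLR2B, the second-largest catalytic subunit, read 14639 and 14567 against 10639 and 12339 units (78.7%, -0.35 ± 0.12, limma adjusted p = 0.0366), and its call was lost without either monolayer replicate or without spheroids replicate 1, under quantile normalization (-0.24, limma adjusted p = 0.112), without the signal minimum and without the intensity trend. The assembly platform genes POLR2C (4677 and 3763 units, then 3578 and 3416) and POLR2J (7705 and 7278, then 6264 and 5586) did not pass, at -0.26 ± 0.15 and -0.34 ± 0.13. POLR2I, the zinc ribbon subunit, read 4513 and 3796 against 3530 and 2945 units and also missed the threshold (-0.36 ± 0.16, interval -0.70 to -0.01, limma adjusted p = 0.0921). For these 3 genes the spheroid arrays were both below the monolayer arrays, so the intervals leave room for falls of up to -0.59 (POLR2C), -0.62 (POLR2J) and -0.70 (POLR2I).

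RNA polymerase III held both ends of the range. Of its 9 own subunits 5 fell, 1 rose and 3 did not pass, with a median of -0.70. POLR3K, the zinc ribbon subunit that serves in RNA cleavage and termination, fell furthest of all members, from 2514 and 2488 units in monolayers to 928.3 and 1057 in spheroids. The spheroid mean was 39.7% of the monolayer mean (2501 ± 18.2 and 992.5 ± 90.8, SD, n = 2), the difference was -1.31 ± 0.17 (interval -1.68 to -0.94, limma adjusted p = 0.000111), and 0.803% of all tested genes were as low or lower. The corresponding zinc ribbon genes of the other polymerases were at -0.53 (POLR1H) and -0.36 (POLR2I).

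POLR3G and POLR3GL are alternative versions of one position in the subunit trimer that opens promoters, and POLR3G is known from stem cells and tumours. POLR3G read 2847 and 3658 units in monolayers and 1566 and 1713 in spheroids, a fall to 50.4% (-0.96 ± 0.17, limma adjusted p = 0.000918). POLR3GL read 1473 and 1275 units in monolayers and 2470 and 2083 in spheroids, a rise of 1.66-fold (0.71 ± 0.17, interval 0.33 to 1.09, limma adjusted p = 0.00655). Neither pair of groups overlapped, and both calls held without each array in turn. Within each array, the log2 ratio of POLR3GL to POLR3G relative to its monolayer mean came to 0.28 and -0.28 on the monolayer arrays against 1.86 and 1.49 on the spheroid arrays, a shift of 1.68 that no scaling of whole arrays can alter apart from the constant added to the signals. With 2 arrays against 2, an exact permutation test of that shift cannot go below p = 0.333 (two-sided), so it is given as a measurement. A separate POLR3G probe set was also lower (-0.87 ± 0.31, limma adjusted p = 0.0496). Scaled to the spikes, POLR3GL was at -0.16 against the median of -0.89 for all genes.

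**Figure D3:**
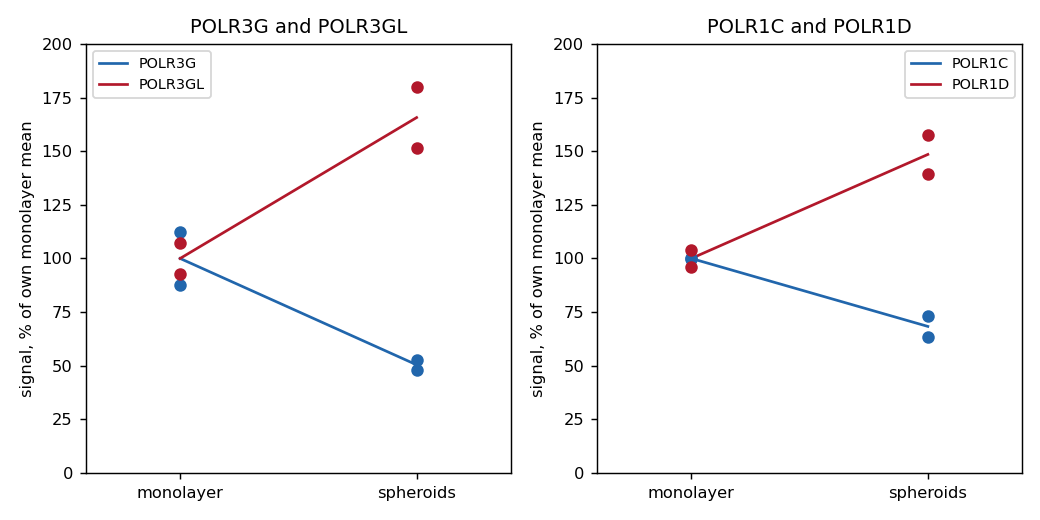
Signals of POLR3G with POLR3GL and of POLR1C with POLR1D on each array, in percent of the gene's own monolayer mean on a linear axis from 0. Points are arrays and lines join the group means, which in spheroids are 50.4% for POLR3G, 165.7% for POLR3GL, 68.3% for POLR1C and 148.5% for POLR1D.

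The remaining trimer members POLR3C and POLR3F were both lower on each spheroid array than on either monolayer array. POLR3F read 1271 and 792.2 units in monolayers and 631.1 and 564.6 in spheroids (57.9%, -0.72 ± 0.24, limma adjusted p = 0.0308), with -0.39 and no call without monolayer replicate 1 and no call without either spheroid replicate or without the signal minimum. POLR3C went from 1227 and 1204 to 1016 and 841.6 units and was not called (-0.38 ± 0.19). POLR3B, the second-largest catalytic subunit, read 1239 and 1441 against 661.2 and 907.4 units (58.5%, -0.76 ± 0.21, limma adjusted p = 0.0119), a call lost without monolayer replicate 2 or spheroids replicate 1, while POLR3A, the largest, read 1008 and 889.5 against 755.7 and 773.0 and was not called (-0.30 ± 0.20, interval -0.72 to 0.13). POLR3D and POLR3E pair in a dimer used in initiation and termination. POLR3E read 2289 and 2759 against 1469 and 1592 units (60.7%, -0.70 ± 0.17, limma adjusted p = 0.0059), but its other probe set was at -0.09 ± 0.20, the mean of both was -0.40 and not called, and the call was lost without monolayer replicate 2. POLR3D was close to the minimum, at 376.7 and 309.0 units in monolayers and 352.1 and 227.6 in spheroids, with overlapping groups (-0.24 ± 0.28). Without monolayer replicate 2, and also without spheroids replicate 1, 3 of the RNA polymerase III subunits were called lower in place of 5.

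POLRMT, the mitochondrial polymerase, read 1984 and 1748 units in monolayers and 1484 and 1256 in spheroids. Both spheroid arrays were lower, but the difference of -0.44 ± 0.18 (interval -0.82 to -0.06) missed the threshold (limma adjusted p = 0.0663).

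The 3 genes below the minimum were POLR2J2, a near copy of POLR2J, at 13.7 to 96.6 units, POLR2J4, a pseudogene of that family, at 174.5 to 273.8 units, and POLR1HASP, transcribed beside POLR1H in the antisense direction, at 16.6 to 112.7 units. POLR2J3 and POLR2M are named only on probe sets that list several genes, so these were not taken by the rule. The POLR2J and POLR1H values come from probe sets whose probes can pick up related transcripts, as do those of 14 tested members by their probe set type. The 33 genes had 78 single-symbol probe sets, 49 of them above the minimum. Among the 19 above the minimum that were not chosen, 18 had the same sign as the chosen probe set of their gene, 7 were called in the same direction and none in the opposite one in a fit over 14162 probe sets (limma). The exception in sign was a cross-hybridising probe set of POLR1B at 0.08, with a mean of 543.5 units.

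The promoters of the subunit genes were read to show what the members share beside their function. RefSeq gave a window from 250 bases before to 50 bases after the start for 24 of the 33 genes (GRCh38.p14), and 8 short motifs were searched on both strands. The palindromic element of NRF1, a regulator of respiratory genes, was found in the windows of 4 genes (16.7%), against 1.52% of all 27305 genes with a window. These were 3 genes that fell in spheroids (POLR2F, POLR2H and POLR3B) and POLRMT. The stretches are printed upstream of each start, on the strand of the gene, with the element in capitals.

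POLR2F, chr22:37953603-37953647, plus strand: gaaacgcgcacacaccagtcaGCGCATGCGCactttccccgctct
POLR2H, chr3:184363316-184363360, plus strand: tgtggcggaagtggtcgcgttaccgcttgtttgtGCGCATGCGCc
POLR3B, chr12:106358035-106358079, plus strand: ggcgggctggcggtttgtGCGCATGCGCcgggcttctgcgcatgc
POLRMT, chr19:633538-633582, minus strand: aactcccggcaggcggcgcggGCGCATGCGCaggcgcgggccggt

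The core CCGGAAG, bound by ETS family factors, was found for 9 genes (37.5% against 12.2% of all genes). Of these POLR1B, POLR1C, POLR2D and POLR2F fell, POLR2C, POLR3A, POLR3C and POLRMT were not called, and POLR2J2 was not tested. POLR1C has it on both strands, where matches overlap in a palindrome. The CCAAT box was found for 7 genes (29.2% against 39.7%), and the windows of both genes that rose, POLR1D and POLR3GL, hold it, as do those of POLR1H, POLR3B, POLR3C, POLR3K and POLRMT. POLR3GL has it in each orientation close to its start. Stretches are printed for the RNA polymerase I gene with the largest fall, for the platform gene that fell, and for the RNA polymerase III paralog that rose, with the matches in capitals.

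POLR1B, chr2:112541891-112541930, plus strand: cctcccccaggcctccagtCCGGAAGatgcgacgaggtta
POLR1C, chr6:43516944-43516983, plus strand: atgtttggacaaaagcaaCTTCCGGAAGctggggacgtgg
POLR3GL, chr1:145964630-145964679, plus strand: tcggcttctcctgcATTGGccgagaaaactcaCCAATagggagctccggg

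The window of POLR3E holds a match to the B box, the internal element through which transfer RNA genes recruit TFIIIC, and 27 of all genes (0.0989%) have one. The stretch is printed with the B box in capitals. The match lies at -209 to -199 bases from the start of POLR3E, and whether it belongs to a separate transfer RNA gene was not tested.

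POLR3E, chr16:22297159-22297238, plus strand: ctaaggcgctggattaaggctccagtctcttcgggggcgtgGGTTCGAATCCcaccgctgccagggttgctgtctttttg

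The E box CACGTG was found for POLR1G, POLR3A, POLR3C and POLR3E (16.7% against 8.77%), GGCGGGA for 5 genes (20.8% against 18.0%), and the TATA box TATAAA and the palindrome bound by BANP for none (14.0% and 0.505% of all genes). A match is a description of these letters only, and binding was not measured.

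The factors that work with the polymerases were counted in the same way. Of 78 tested partner genes 24 fell, 3 rose and 51 did not pass, with a median of -0.27. That is 30.8% lower beside 20.6% of all tested genes, while 19.0% of all tested genes rose. The lists ran from 10.5% lower (RNA polymerase II elongation factors), below that of all tested genes, to 62.5% (mitochondrial factors), with 25% for the general factors of RNA polymerase II. Of 9 RNA polymerase I factors 3 fell: TAF1A, a subunit of the promoter selectivity factor (-0.94 ± 0.28), TBP, the TATA-binding protein that all nuclear polymerases use (-0.69 ± 0.19), and CAVIN1, a caveola protein also known for transcript release (-0.56 ± 0.21). UBTF, which binds ribosomal DNA, and RRN3, which recruits the polymerase, were at -0.26 ± 0.32 and -0.32 ± 0.16 and were not called (both were picked after their values were seen). Of 16 general factors of RNA polymerase II 4 fell, among them GTF2F2, the small subunit of TFIIF (-0.74 ± 0.17), and the TFIIH subunits GTF2H4 (-0.76 ± 0.22) and ERCC2 (-0.75 ± 0.25). The limma adjusted p of the 6 genes named as fallen lay between 0.00442 and 0.0487. Of these only GTF2F2 was called without each array in turn: the call was lost without monolayer replicate 2 for the other 5, without monolayer replicate 1 for GTF2H4 and ERCC2, without spheroids replicate 1 for TAF1A, GTF2H4 and ERCC2, and without spheroids replicate 2 for TBP and CAVIN1. Averaging its probe sets put ERCC2 at 0.04.

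Elongation factors of RNA polymerase II held all 3 partner genes that rose, of 19 tested, where 19.0% of all tested genes rose. AFF1 and AFF4, the scaffolds of the super elongation complex, were at 0.70 ± 0.16 and 0.67 ± 0.18, and ELL2, a component of that complex picked after its value was seen, was at 0.52 ± 0.17 (limma adjusted p = 0.0046, 0.0101 and 0.0286). CDK9, CCNT1 and CCNT2 of the same list were not called (0.18 ± 0.26, 0.16 ± 0.15 and 0.02 ± 0.23). ELL was below the minimum, and these genes too were picked after their values were seen. NELFB, a subunit of the pausing factor NELF, was among the 2 of 19 that fell (-0.53 ± 0.20, limma adjusted p = 0.047). Without monolayer replicate 2 a single partner gene was called higher, AFF4 lost its call there and without spheroids replicate 2, and NELFB lost its call without monolayer replicate 1 or spheroids replicate 2. Scaled to the spikes, AFF1 and AFF4 were at -0.18 and -0.20 against the median of -0.89 for all genes. Of 14 tested factors of RNA polymerase III 5 fell, with GTF3C4 (-0.80 ± 0.19) and GTF3C6 (-0.73 ± 0.14) of TFIIIC, which binds the internal promoter, and SNAPC5 (-0.72 ± 0.15) of the complex at small nuclear RNA promoters furthest down (limma adjusted p 0.0013 to 0.00487). MAF1, the repressor of RNA polymerase III, picked after its value was seen, was at 0.19 ± 0.27 and not called. CRCP, a subunit of RNA polymerase III under another symbol, was at 0.18 ± 0.22 and not called either.

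Mitochondrial transcription factors fell in 5 of 8 cases (62.5%, beside 20.6% of all tested genes), with a median of -0.61. These included TEFM, the elongation factor that keeps POLRMT on its template (-0.97 ± 0.18), MTERF3, a repressor of mitochondrial transcription (-0.84 ± 0.15), and TFAM, which packages mitochondrial DNA and starts transcription (-0.78 ± 0.15). Of 11 assembly factors 5 fell (45.5%), led by GPN3, a GTPase for nuclear import of RNA polymerase II (-0.80 ± 0.14), and the paired ATPases RUVBL1 (-0.76 ± 0.14) and RUVBL2 (-0.75 ± 0.13). The limma adjusted p of these 6 genes lay between 0.000672 and 0.00141.

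**Figure D4:**
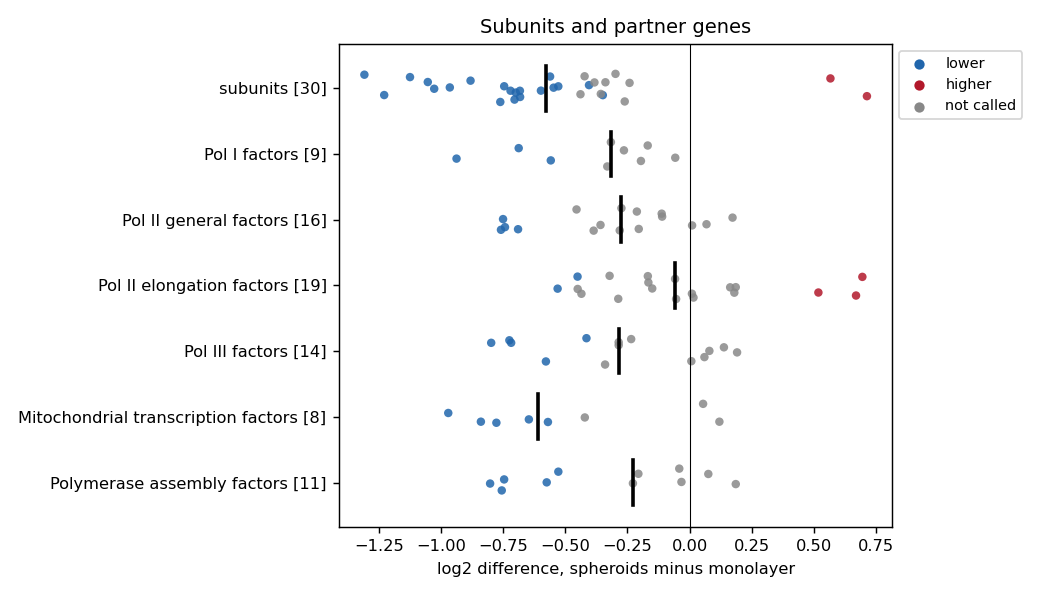
Differences between spheroids and monolayers on the log2 (signal + 32) scale for the 30 subunit genes and the tested genes of 6 partner lists. Blue points are genes called lower, red higher and grey not called, and bars mark the medians. Each partner list drawn has a median below 0, from -0.06 for RNA polymerase II elongation factors to -0.61 for mitochondrial factors. The 3 partner genes that rose are all elongation factors, of 19 tested, and 19.0% of all tested genes rose.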

How the data were processed

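The authors hybridised 4 arrays (2 monolayer, 2 spheroids, from independent cultures) and deposited MAS5 signal intensities, scaled per array to the same trimmed mean (2% trimmed at each end). The table holds 54675 probe sets, of which 62 are controls, 41091 have 1 gene symbol in the platform annotation, 1801 several and 11721 none listed. All 33 members matched RefSeq gene IDs. Intensities were taken as log2 (signal + 32), probe sets with 1 symbol and a mean over 300 were kept, the brightest was used per gene, and limma 3.58.1 (R 4.3.3) was fitted with an intensity trend, without a replicate block, over 8721 genes with Benjamini-Hochberg adjustment at 0.05 (2 residual and 10.5 prior degrees of freedom). The number of arrays limits the precision: the median SE was 0.19. In simulated data of 8721 genes, 67, 67 and 66 genes were changed by 0.5, 1 and 2 on the log2 scale. Of these 25.4%, 92.5% and 100% were recovered, and 25 of 170 calls were unchanged genes. In the real data 39.6% of tested genes were called, so the simulated rates need not hold there. Values were given for every member, and for up to 3 called genes per partner list by absolute difference (or the gene with the smallest p where none was called). ELL, ELL2, CDK9, CCNT1, CCNT2, UBTF, RRN3 and MAF1 were added after their values were seen. Members, lists and motifs were chosen with earlier results of these data known. No array pair was identical. In all, 14 alternatives were run.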

Additional observations from a re-analysis of the deposited data

How the results depend on the processing

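Of 22 called members, 8 were called under every alternative that tested them (POLR1B, POLR2E, POLR2F, POLR2G, POLR2K, POLR2L, POLR3G and POLR3K, all lower), and 27 of 30 tested members were negative under all of them. Leaving out 1 array at a time gave 11 to 16 lower members, with 1 to 5 for RNA polymerase I alone, 0 to 1 for its subunits shared with III, 4 to 5 for the subunits of all 3 enzymes, 2 to 3 for II alone and 3 to 4 for III alone, and 1 to 3 higher partner genes. Without the signal minimum, 19775 genes were tested, 1318 of them lower, and 3 members of I, 2 of II and 14 partner genes were lower. Quantile normalization gave 18 lower and 2 higher members (20.4% and 17.4% of all tested genes). Without the intensity trend 3 members of I were lower (17.5% of all tested genes). Spike-in scaling gave 7 lower members of II, 8 of III and 52 lower partner genes, where 43% of all tested genes were lower. It gave 0 higher members and 0 higher partner genes, beside 1.87% of all tested genes. This scaling reversed POLR1D (-0.32), POLR3GL (-0.16), AFF1 (-0.18), AFF4 (-0.20) and CRCP (-0.68), since it shifted the median of all genes to -0.89. Averaging probe sets left 1 higher member and reversed ERCC2 (0.040). Without cross-hybridising probe set types 21 members were tested and 14 were lower, beside 18.3% of all tested genes. These included 3 of 3 tested subunits of all enzymes and 3 of 7 tested subunits of III. Leaving out 1 array, POLR3D ran from -0.52 to 0.041 (without spheroids replicate 2) and CRCP from -0.081 (without monolayer replicate 2) to 0.44. With the replicate number as a block, 23 members were lower and 2 higher, adding POLR2I, POLR2J and POLRMT. Among partner genes 29 were then lower and 3 higher, and over all tested genes 26.4% were lower and 24.2% higher. Same-numbered arrays correlated at 0.323 in their deviations, and the labels give them only a shared number. In both groups the control probe set for 18S ribosomal RNA read higher on replicate 1 (5789 and 2860 units) than on replicate 2 (937.2 and 706.3). That for 28S did the same (11660 and 10360 against 4090 and 3828). Whether a number marks a shared day or batch was not tested. Where no cause is shown by the construction, the cause was not tested.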

Other observations

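Probe sets that name several genes of the POLR2J family were not tested. One that lists UPK3BL1, POLR2J3, POLR2J2 and POLR2J read 564.6 and 817.5 units in monolayers and 1015 and 1006 in spheroids, and one that lists PMS2P13 as well read 228.5 and 281.7 against 488.4 and 404.4. Another with UPK3BL1, POLR2J3, POLR2J2 and POLR2J alone read 110.9 and 136.2 against 217.5 and 125.2 units. One that lists POLR2J4 beside them read 545.4 and 486.7 against 571 and 403.8, and the groups overlapped for both. A probe set naming MYZAP, GCOM1 and POLR2M read 500.3 and 495.5 against 774.8 and 721.5 units, while one naming GCOM1 and POLR2M read 1701 and 1562 against 1757 and 1615. Another naming GCOM1 and POLR2M was lower on both spheroid arrays, at 918.9 and 888.9 against 776.2 and 757.3 units. A dim one read 7.2 and 14.6 against 31.2 and 44.8.

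The control probe sets for ribosomal RNA are given as values only, and whether they follow the output of RNA polymerase I was not tested. The 18S probe set of the transcript's middle read 5789 and 937.2 units on the monolayer arrays against 2860 and 706.3 on the spheroid arrays. That of 28S read 11660 and 4090 against 10360 and 3828 units, with overlapping groups for both.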
